A study of Mus musculus with 6 samples.

Results

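The 8 genes described here encode secreted or surface proteins through which regulatory T cells (Treg) restrain immune responses or help tissue repair: Il10, Ebi3, Il12a, Fgl2, Areg, Nrp1, Lgals1 and Lgals3. They were chosen by name, by a rule that uses no measured value, though with earlier results of these data known. All 8 were found among the 25759 genes of the table. RNA was sequenced from adaptive Treg (aTreg), which gain the regulatory transcription factor Foxp3 when T cells are activated together with TGF-beta. Whole lymph node and spleen cell suspensions from C57BL/6 mice aged 8 to 12 weeks, all carrying a Foxp3-GFP reporter, were cultured for 3 days. Concanavalin A (ConA, a T cell mitogen, 2 µg/ml) was given with TGF-beta (3 ng/ml) plus IL-2 (10 ng/ml), and cells positive for CD4 and GFP were then sorted. Of the 6 libraries, 3 came from wild type (WT) mice and 3 from BMPR/CD4cre mice, called BMPR1a-deficient or deficient here, in which Cre targets the gene of BMPR1a, a type I receptor of the bone morphogenetic protein (BMP) family. A Cre recombinase driven by Cd4 acts from the thymus onward and in CD8 T cells too, and the sort does not separate cells that carried Foxp3 before the culture from those that gained it there. Whether replicate libraries stem from different mice or culture wells is not in the labels, and p-values therefore speak only to the variation among these 6 libraries, part or all of which could be technical.

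IL-10 is a cytokine that quiets antigen-presenting cells. IL-35 is a cytokine made of the Ebi3 protein and the p35 chain encoded by Il12a. Fgl2 encodes a fibrinogen-like protein that acts on antigen-presenting cells through an inhibitory Fc receptor, and Areg encodes amphiregulin, a ligand of the EGF receptor through which Treg in tissues promote repair. Nrp1 encodes neuropilin-1, a co-receptor for semaphorins and VEGF that is common on Treg that arise in the mouse thymus. Lgals1 and Lgals3 encode galectin-1 and galectin-3, lectins that bind galactosides on cell surfaces.

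In these cells the galectins were abundant, Nrp1 and Ebi3 were low, Fgl2, Il12a and Il10 lay near or below 1 FPKM, and Areg was close to the limit of detection. FPKM scale fragments to transcript length and to library depth, so levels of different genes can be set side by side. Of the 8 mediators, 4 had a mean of at least 1 FPKM and were tested between the groups. Of these, 0 passed the threshold (limma, adjusted p under 0.05 over all tested genes). Among all tested genes 0.746% were called higher and 0.321% lower. The other 4 were read from a fit without that limit on the mean, in which 0 of the 8 passed. The largest difference was that of Nrp1, with a WT mean of 3.96 ± 0.815 FPKM and a deficient mean of 8.11 ± 1.69 (SD, n = 3 per group, limma adjusted p = 0.111). Nrp1 and Fgl2 were the members whose groups did not overlap, with each BMPR1a-deficient library above each WT library. Groups did not overlap, in either direction, for 26.3% of tested genes. The other 6 members overlapped between the groups.

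To show the DNA next to which these members are transcribed, the sequence upstream of the RefSeq start is printed for Nrp1 and Fgl2, whose groups did not overlap, and for Areg, the lowest member. The stretches come from the RefSeq promoter table of GRCm38.p6, on the plus strand, and end before the first exon annotated downstream of their first base. Capitals mark matches, on either strand, to TGACGTCA (the cAMP response element, CRE), TGAGTCA (the AP-1 site), GGCGCC (a motif that BMP-activated SMAD proteins bind) and CAGAC (the SMAD box).
Nrp1, chr8:128358823-128359072: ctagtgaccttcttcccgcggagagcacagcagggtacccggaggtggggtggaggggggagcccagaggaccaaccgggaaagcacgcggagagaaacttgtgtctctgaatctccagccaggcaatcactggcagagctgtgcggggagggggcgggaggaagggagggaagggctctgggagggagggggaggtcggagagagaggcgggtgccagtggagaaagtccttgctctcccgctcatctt
Fgl2, chr5:21372423-21372641: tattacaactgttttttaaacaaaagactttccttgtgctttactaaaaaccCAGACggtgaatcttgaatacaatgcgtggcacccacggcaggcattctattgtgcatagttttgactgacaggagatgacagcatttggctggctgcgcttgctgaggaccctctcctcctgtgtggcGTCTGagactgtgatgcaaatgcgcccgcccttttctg
Areg, chr5:91139349-91139598: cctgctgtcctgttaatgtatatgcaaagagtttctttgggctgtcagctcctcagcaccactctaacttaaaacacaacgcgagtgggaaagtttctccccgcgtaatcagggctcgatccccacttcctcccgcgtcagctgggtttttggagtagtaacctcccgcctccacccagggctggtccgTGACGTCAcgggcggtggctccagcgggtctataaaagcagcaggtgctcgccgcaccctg

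The Areg stretch holds a full CRE, which 1.55% of the 32851 windows of 250 bases in the table hold. The Nrp1 stretch holds none of these motifs. It ends at the RefSeq start of Nrp1 and lies after a short first exon of a longer GENCODE transcript, which begins at 128358604. The Fgl2 stretch holds 2 SMAD boxes. The full window of 250 bases also holds an AP-1 site, which lies past the start of an annotated exon. AP-1 sites occur in 4.46% of windows. SMAD boxes occur in 42.2% of windows. Among the 7 windows found for 6 of the mediators, GGCGCC occurs in that of Lgals3, past the start of an annotated exon. Of all windows 9.59% hold GGCGCC. The Lgals3 window also holds 3 SMAD boxes. These matches describe letters only, and binding was not measured.

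The smallest steps in the values put the depth at roughly 29800000 to 37800000 fragments per WT library and 31800000 to 36400000 per deficient library. Bmpr1a itself was at 1.39, 2.34 and 1.31 FPKM in WT and at 0.439, 0.720 and 0.691 in the BMPR1a-deficient libraries. The library of BMPR1a-deficient replicate 1 stood apart: its 13 mitochondrially encoded genes, led by mt-Atp8 and mt-Co2, summed to 5335 FPKM, against 44657 to 53789 in the other 5. The 10 T cell identity genes, led by Trac and Cd3g, summed to 3298 to 3480 FPKM in all 6 libraries, with 0 of 10 past the threshold. This sum does not show the differences of single genes, picked here after their values were seen. In deficient replicate 1 Cd3e was at 118 FPKM, against 194 to 259 in the other 5 libraries. Ctla4 was at 103 against 203 to 275 and Cd28 at 42.8 against 67.8 to 83.1. Higher in that library were Lck, at 645 against 388 to 439, and Cd4, at 436 against 329 to 359. The 17 myeloid and dendritic cell markers, led by Lyz2 and Fcer1g, summed to 174, 43.5 and 86.1 FPKM in WT and to 20.0, 79.5 and 154 in the deficient libraries, so the groups overlapped and replicate 1 was the lowest. Of those markers Cd209a was listed at 0 in all 6 libraries and Clec9a in 5. The 10 B cell markers, led by Cd79b and Cd79a, summed to 32.2 to 64.0 FPKM in WT and 46.9 to 64.4 in the deficient libraries. Cd8b1 was at 23.1 to 30.1 FPKM in WT and 24.1 to 39.3 in deficient libraries. Cd8a was at 8.80 to 11.7 and 13.8 to 29.1, without overlap. The 6 NK cell markers, led by Tyrobp and Eomes, included Ncr1 at 0 in 5 libraries. Tyrobp is also 1 of the 17 myeloid and dendritic cell markers. Klrb1c of that list, which encodes NK1.1 and was singled out after its values were seen, was at 0.0692 to 0.126 FPKM in WT and 0.598 to 0.760 in the deficient libraries, without overlap. The 8 stromal and endothelial markers were led by Pecam1 and Vwf. Tested markers of these other cell types numbered 9 myeloid, 8 B cell, 2 CD8, 2 NK and 2 stromal or endothelial genes, with Tyrobp counted as both myeloid and NK. Of these 0 passed the threshold. Klrb1c, under the filter of 1 FPKM, was not in that fit. Each deficient library was below each WT library for 3 of the 10 T cell identity genes, 1 of the 17 myeloid markers and 9 of the 13 mitochondrial genes, and above for 1 of the 10 B cell, 1 of the 6 NK cell and 1 of the 2 CD8 T cell markers. Over all tested genes, 10.4% had each deficient library lower and 15.9% had each deficient library higher. In sorted bulk RNA, fewer cells of a type and less RNA per cell cannot be told apart.

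**Figure D1:**
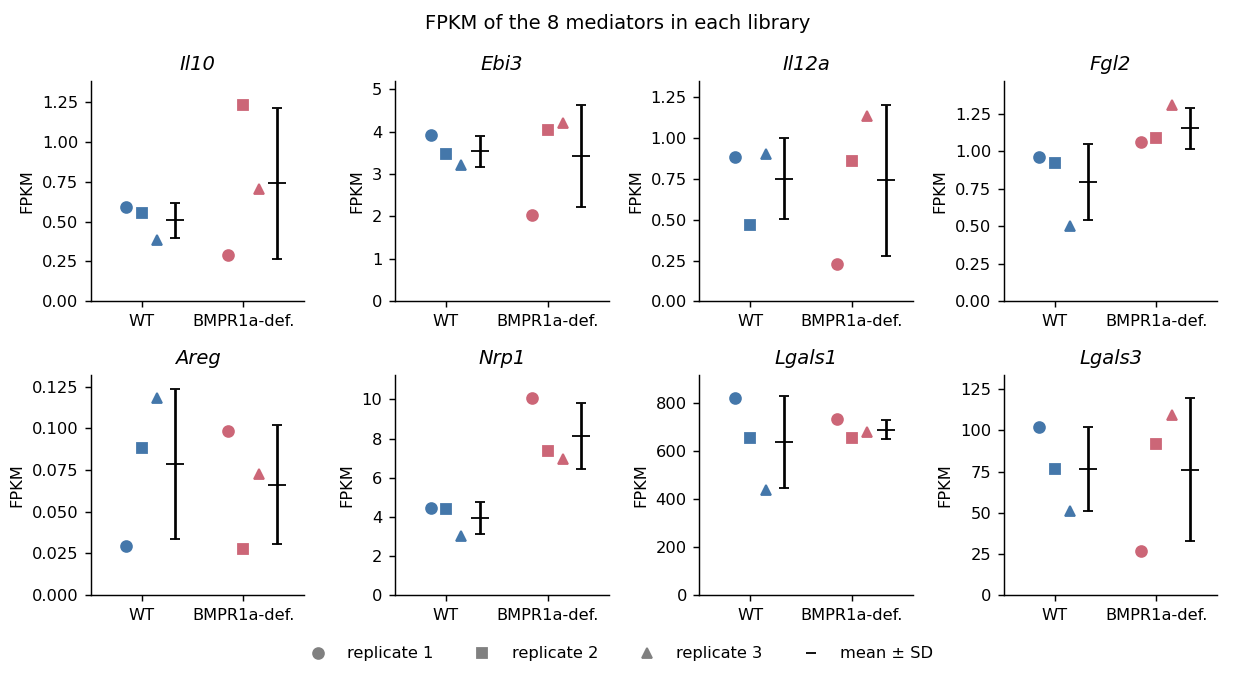
FPKM of each mediator in each library, 1 panel per gene with its own axis from 0; symbols are replicates, and the bar shows the mean and SD of 3 libraries. The BMPR1a-deficient libraries of Nrp1 (6.93 to 10.0) all lie above the WT libraries (3.02 to 4.44), while BMPR1a-deficient replicate 1 is the lowest library for Il10, Ebi3, Il12a and Lgals3.

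Nrp1 (ENSMUSG00000025810, chromosome 8, 128358604 to 128503363 in GRCm38) was at 4.44, 4.42 and 3.02 FPKM in the WT libraries and at 10.0, 7.36 and 6.93 in the BMPR1a-deficient ones. All BMPR1a-deficient libraries were higher than all WT libraries, and the highest value came from the library that stood apart, replicate 1. The BMPR1a-deficient mean was 2.05 times the WT mean. The log2 fold change, on the scale of log2(FPKM + 1) and as BMPR1a-deficient minus WT, was 0.88 (SE 0.187, 95% interval 0.42 to 1.33). Its unadjusted limma p was 0.00336, the only one under 0.05 among the 4 mediators tested, and its limma adjusted p of 0.111 did not pass. Over all tested genes 15.2% had an unadjusted p under 0.05. In level Nrp1 exceeded 63.5% of the genes in the table. By p-value Nrp1 ranked 406 of 13413 tested genes, of which 1.07% were called in either direction. All 3 BMPR1a-deficient libraries lay above all 3 WT libraries for 15.9% of tested genes, so that pattern is common in this comparison. Over the 20 ways to split the 6 values, the exact two-sided permutation p was 0.1, and no smaller p is possible with 3 libraries per group. Each gene whose groups do not overlap gets this permutation p, so it adds nothing to that pattern. Without BMPR1a-deficient replicate 1 the log2 fold change was 0.73 (limma adjusted p = 0.125). Weighting the libraries by their estimated quality made Nrp1 pass (log2 fold change 0.82, limma adjusted p = 0.02, against 0.0939 to 0.351 in the other 15 alternatives). With these weights far more of all tested genes passed, 833 higher and 407 lower, against 100 and 43 in the main fit.

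Of the 10 ligands, partners and relatives of neuropilin-1, 6 were high enough to be tested and 0 passed, with a median log2 fold change of -0.14 against 0.04 over all tested genes. Sema4a, which encodes a semaphorin that binds neuropilin-1 on mouse Treg, was at 31.3, 19.3 and 25.0 FPKM in WT and at 9.40, 14.7 and 15.3 in the deficient libraries (log2 fold change -0.89, limma adjusted p = 0.182). Vegfa, which encodes the growth factor VEGF-A and was singled out after its values were seen, was at 1.19, 2.90 and 4.43 FPKM in WT and at 0.412, 0.898 and 0.997 in the deficient libraries (limma adjusted p = 0.268). For both ligand genes each BMPR1a-deficient library was below each WT library, a pattern found in 10.4% of tested genes. Plxnd1, which encodes a plexin that pairs with neuropilins, was at 2.83 to 3.35 FPKM in WT and 3.46 to 4.26 in the deficient libraries (limma adjusted p = 0.326), and was the member of that list whose BMPR1a-deficient libraries all lay higher. Nrp2, the close relative of Nrp1, was at 0.759 to 2.10 and 0.519 to 1.97 FPKM.

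**Figure D2:**
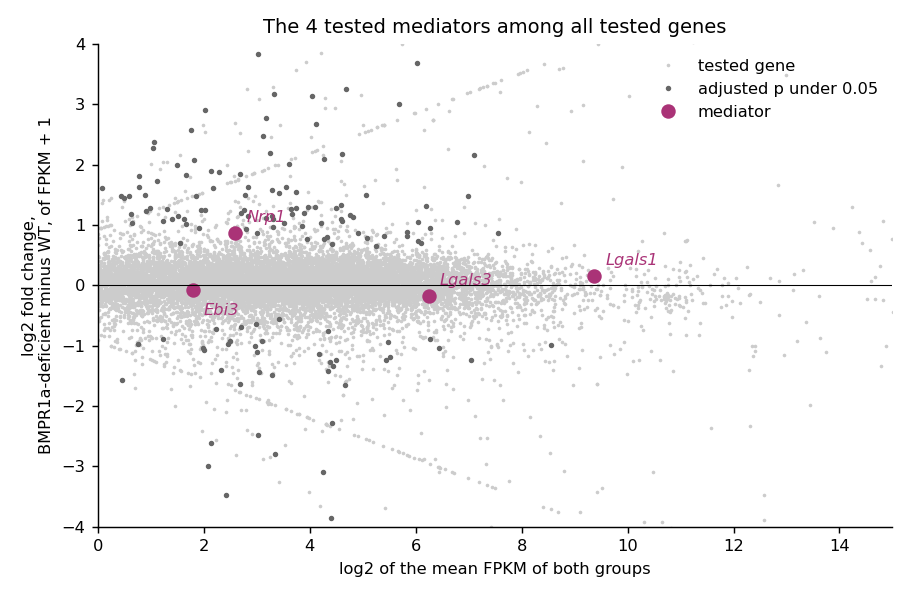
Log2 fold change of FPKM + 1, BMPR1a-deficient minus WT, against the log2 mean FPKM of both groups, for each tested gene (grey), genes with an adjusted p under 0.05 (dark) and the 4 tested mediators (purple). Nrp1 lies at 0.88, while Ebi3, Lgals3 and Lgals1 lie between -0.18 and 0.16; 68 genes outside the axes are not drawn.

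The galectins were the most abundant mediators. Lgals1 (ENSMUSG00000068220, chromosome 15, 78926725 to 78930465) was at 818, 654 and 437 FPKM in WT and at 733, 653 and 679 in the deficient libraries, and its mean exceeded that of 99.0% of the genes in the table. The WT libraries spread on both sides of the narrow range of the BMPR1a-deficient ones. The log2 fold change of Lgals1 was 0.16 (SE 0.245, 95% interval -0.44 to 0.76, limma adjusted p = 0.765), and without WT replicate 3 it was -0.09. Lgals3 (ENSMUSG00000050335, chromosome 14, 47367751 to 47386160) was at 102, 76.3 and 51.3 FPKM in WT and at 27.0, 91.7 and 109 in the deficient libraries. BMPR1a-deficient replicate 1 was the lowest library, replicate 2 lay within the WT range and replicate 3 above it. The log2 fold change of Lgals3 was -0.18 (SE 0.563, 95% interval -1.56 to 1.20, limma adjusted p = 0.889), and without BMPR1a-deficient replicate 1 it was 0.44 (limma adjusted p = 0.482). The WT and deficient means of Lgals3 were 76.6 ± 25.5 and 76.1 ± 43.4 FPKM (SD, n = 3 per group). The interval leaves room for changes of more than 1 log2 unit in either direction.

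The ratio of Lgals1 to Lgals3 FPKM was 8.01, 8.56 and 8.53 in the WT libraries. It was 27.2 in deficient replicate 1, 7.12 in replicate 2 and 6.21 in replicate 3. In 5 of the 6 libraries the galectins thus stood in a ratio between 6.21 and 8.56, and the library low in mitochondrial transcripts and in myeloid markers was the exception. Whether those differences had a part in its Lgals3 value was not tested. The same library was the lowest for 4 of the 8 mediators (Il10, Ebi3, Il12a and Lgals3) and the highest for Nrp1. Its Lgals1 and Fgl2 values lay within 0.42 log2 units of the WT mean.

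Among the other galectins and their binding proteins, 5 of 8 were tested and 0 passed, with a median log2 fold change of -0.00. Lgals9, which encodes galectin-9, was at 129, 125 and 119 FPKM in WT and at 93.3, 143 and 144 in the deficient libraries (log2 fold change -0.000, SE 0.191). Lgals3bp, which encodes a glycoprotein that galectin-3 binds, was at 34.6, 32.1 and 36.9 and at 23.5, 34.3 and 43.5 FPKM (limma adjusted p = 0.889). In both genes BMPR1a-deficient replicate 1 was the lowest library and replicate 3 the highest. Havcr2, which encodes Tim-3, a receptor that galectin-9 binds, was below 0.35 FPKM in each library.

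**Figure D3:**
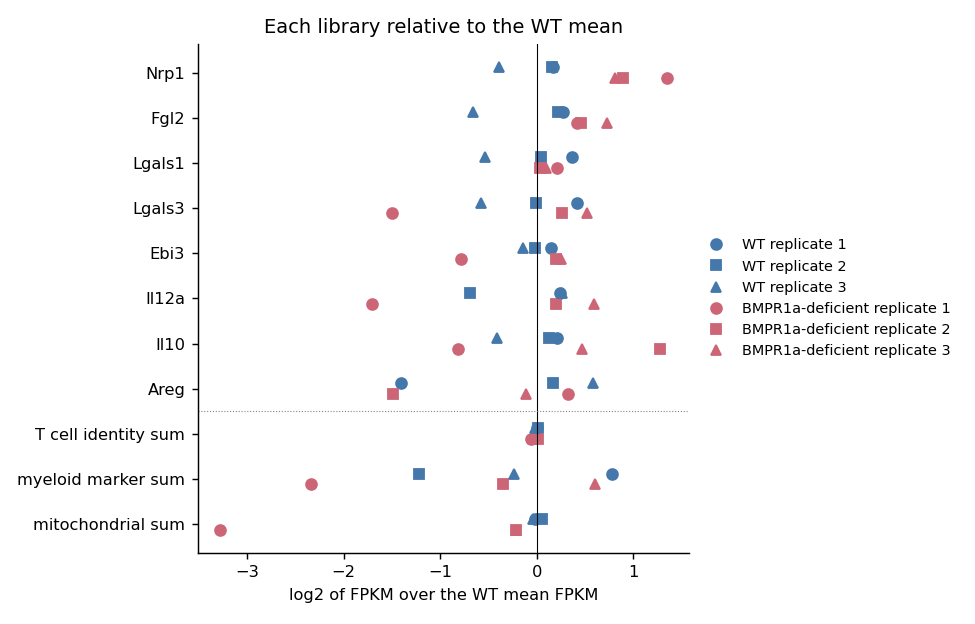
Log2 of each library's FPKM over the WT mean, for the 8 mediators and, under the dotted line, for the summed markers of T cells and myeloid cells and the summed mitochondrial genes. BMPR1a-deficient replicate 1 lies at -1.50 for Lgals3, -1.71 for Il12a, -2.34 for the myeloid sum and -3.28 for the mitochondrial sum, but at 1.34 for Nrp1 and -0.06 for the T cell sum.

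Ebi3 (ENSMUSG00000003206, chromosome 17, 55952640 to 55957022) was at 3.91, 3.48 and 3.20 FPKM in WT and at 2.04, 4.05 and 4.20 in the deficient libraries. Replicates 2 and 3 of the BMPR1a-deficient group lay above all WT libraries and replicate 1 below them. The log2 fold change was -0.07 (SE 0.229, 95% interval -0.63 to 0.49, limma adjusted p = 0.894), and without BMPR1a-deficient replicate 1 it was 0.18 (limma adjusted p = 0.387). The group means were 3.53 ± 0.355 and 3.43 ± 1.20 FPKM (SD, n = 3 per group). An antisense gene, Gm16712, overlaps Ebi3 at 0.358 to 0.684 FPKM, and strand handling is not given, so part of either value could belong to the other. Il12a (ENSMUSG00000027776, chromosome 3, 68690644 to 68698547) was at 0.887, 0.465 and 0.903 FPKM in WT and at 0.229, 0.859 and 1.13 in the deficient libraries, with the groups overlapping. Its mean was under the filter of 1 FPKM. In a fit without that filter its log2 fold change was -0.04 (limma adjusted p = 0.963), and 0.20 without BMPR1a-deficient replicate 1 (limma adjusted p = 0.599).

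Ebi3 exceeded Il12a in each library, by a ratio of 4.41, 7.48 and 3.55 in WT and 8.91, 4.71 and 3.70 in the deficient libraries. Il12b, which encodes the p40 chain that joins p35 to form IL-12, was at 0.347 to 0.630 FPKM in WT and 0.331 to 0.739 in the deficient libraries. Il27, which encodes the p28 chain that joins Ebi3 to form IL-27, was at 0.0357 to 0.0571 and 0.0590 to 0.147 FPKM. Neither group's libraries reached 0.2 FPKM for Il27 or for Il23a, which encodes the p19 chain of IL-23, and 0 of these 3 partner genes passed the filter.

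Il10 (ENSMUSG00000016529, chromosome 1, 131019845 to 131024974) was at 0.589, 0.555 and 0.383 FPKM in WT and at 0.288, 1.23 and 0.702 in the deficient libraries. The BMPR1a-deficient libraries held both the lowest and the highest value. At the estimated depth these values stand for about 13 to 51 fragments per library. The group means were 0.509 ± 0.111 and 0.741 ± 0.474 FPKM (SD, n = 3 per group), and the deficient mean was 0.968 without replicate 1. Without the filter the log2 fold change was 0.17 (SE 0.207, limma adjusted p = 0.735), and without BMPR1a-deficient replicate 1 it was 0.37 (limma adjusted p = 0.333).

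Fgl2 (ENSMUSG00000039899, chromosome 5, 21372642 to 21378374) was at 0.960, 0.924 and 0.501 FPKM in WT and at 1.06, 1.09 and 1.31 in the deficient libraries, about 72 to 181 fragments per library. Each BMPR1a-deficient library was above each WT library, a pattern shared by 13.1% of the genes above 0 in any library, and the gap between the nearest libraries was small. Without the filter, which its mean of 0.976 FPKM narrowly missed, the log2 fold change was 0.27 (SE 0.127, limma adjusted p = 0.432). Without WT replicate 3, the lowest library, it was 0.15 (limma adjusted p = 0.720). Fgl2 lies inside Ccdc146 on the opposite strand, which was at 0 to 0.219 FPKM.

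Areg (ENSMUSG00000029378, chromosome 5, 91139599 to 91148432) was at 0.0297, 0.0881 and 0.118 FPKM in WT and at 0.0981, 0.0279 and 0.0729 in the deficient libraries. These values stand for about 1 to 5 fragments per library, and the groups overlapped. Without the filter the log2 fold change was -0.016 (SE 0.040, limma adjusted p = 0.878), and without BMPR1a-deficient replicate 1 it was -0.038 (limma adjusted p = 0.72), on a scale that understates the change of genes this low. The group means were 0.0786 ± 0.0449 and 0.0663 ± 0.0356 FPKM (SD, n = 3 per group), lower than those of the other 7 mediators, and the mean of Areg exceeded that of 29.2% of the genes in the table. The other ligands of the EGF receptor were low as well: of 6 listed, 5 were in the table and 0 reached the filter. Egf, the highest, was between 0.129 and 0.299 FPKM over the 6 libraries, and Hbegf, which encodes heparin-binding EGF-like growth factor, at 0.0988 to 0.235 and 0.117 to 0.186. Egfr, the receptor gene, was at or under 0.175 FPKM in each library.

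Of the 8 receptor genes for these mediators 7 were tested and 0 passed, with a median log2 fold change of -0.32. Il10rb, which encodes the shared chain of the IL-10 receptor, was at 35.6 to 42.2 FPKM in WT and 38.5 to 52.3 in the deficient libraries (limma adjusted p = 0.466). Il27ra, which encodes the ligand-binding chain of the IL-27 receptor, was at 38.6 to 51.6 and 27.3 to 42.4 FPKM (limma adjusted p = 0.473). The receptor genes whose BMPR1a-deficient libraries all lay lower were Il10ra and Il12rb2, named after their values were seen, and this pattern held for 10.4% of all tested genes. Il10ra, the IL-10-binding chain, was at 15.8, 16.4 and 15.4 FPKM in WT and at 9.84, 11.4 and 13.9 in the deficient libraries (limma adjusted p = 0.246). Il12rb2, a chain used by the receptors of IL-12 and IL-35, was at 37.2, 33.6 and 29.2 FPKM in WT and at 3.33, 16.1 and 22.7 in the deficient libraries (limma adjusted p = 0.335), lowest in replicate 1. Il6st, which encodes gp130, was at 32.8 to 41.6 and 29.1 to 35.7 FPKM.

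Of 16 transcription factor genes known to act on one or more mediators, 15 were tested and 0 passed. The list was drawn up with earlier results of these data known, so its shares are descriptions only. An unadjusted p under 0.05 was found for 7 of them, against 15.2% of all tested genes, and a positive fold change for 11, against 55.5%. Their median log2 fold change was 0.35, against 0.04 over all tested genes. Stat3, which acts downstream of IL-10, was at 140, 135 and 136 FPKM in WT and at 170, 160 and 159 in the deficient libraries (limma adjusted p = 0.305). Foxp3 was at 55.9, 49.4 and 62.3 FPKM in WT and at 51.3, 96.9 and 72.1 in the deficient libraries. Maf, which encodes an activator of Il10 in T cells and was singled out after its values were seen, was at 9.14, 7.72 and 8.91 FPKM and at 17.5, 13.2 and 13.4 (limma adjusted p = 0.0915). Ikzf2, which encodes Helios and like Nrp1 marks Treg from the mouse thymus, was chosen in the same way. It was at 32.9, 21.4 and 22.3 FPKM in WT and at 42.5, 49.0 and 51.1 in the deficient libraries (limma adjusted p = 0.104). Batf and Stat4, which encode factors of T cell activation and of IL-12 signalling and were also chosen after their values were seen, lay lower in each deficient library. Batf was at 57.7, 58.9 and 52.0 FPKM in WT and at 26.4, 38.6 and 38.0 in the deficient libraries (log2 fold change -0.71, limma adjusted p = 0.141). Stat4 was at 69.2, 73.8 and 74.9 FPKM and at 22.0, 41.6 and 47.7 (log2 fold change -1.02, limma adjusted p = 0.189). Both were lowest in replicate 1. In all, the groups did not overlap for 8 of the 16 genes, 6 higher and 2 lower, against 26.3% of tested genes in either direction, and for Foxp3 they did overlap.

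In 2 lists of related function 1 gene each passed the threshold, against 1.07% of all tested genes called in either direction. Of the 10 tested tissue Treg and repair genes, Tnfrsf9, the gene of the 4-1BB costimulatory receptor, rose from WT values of 129, 142 and 127 FPKM to 224, 263 and 242 (log2 fold change 0.87, limma adjusted p = 0.0380). Of the 16 other suppressor molecules tested, Pdcd1, the gene of the checkpoint receptor PD-1, went up from WT values of 15.2, 20.0 and 15 FPKM to 65.3, 42.0 and 42.0 (log2 fold change 1.496, limma adjusted p = 0.0450). Each call held without BMPR1a-deficient replicate 1 (limma adjusted p = 0.0293 for Tnfrsf9 and 0.0398 for Pdcd1) and was lost when any other library was left out, with adjusted p between 0.108 and 0.233. The median log2 fold change was 0.53 over the repair genes and -0.18 over the other suppressor molecules. The groups did not overlap for 5 higher and 2 lower of the 14 repair genes and for 4 higher and 2 lower of the 16 other suppressor molecules. Over all tested genes the shares without overlap were 15.9% higher and 10.4% lower. Rora, Gata3, Batf and Nfil3 are in both the repair list and the transcription factor list. Of these Rora, Gata3 and Batf are thus counted among the genes without overlap in both lists.

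**Figure D4:**
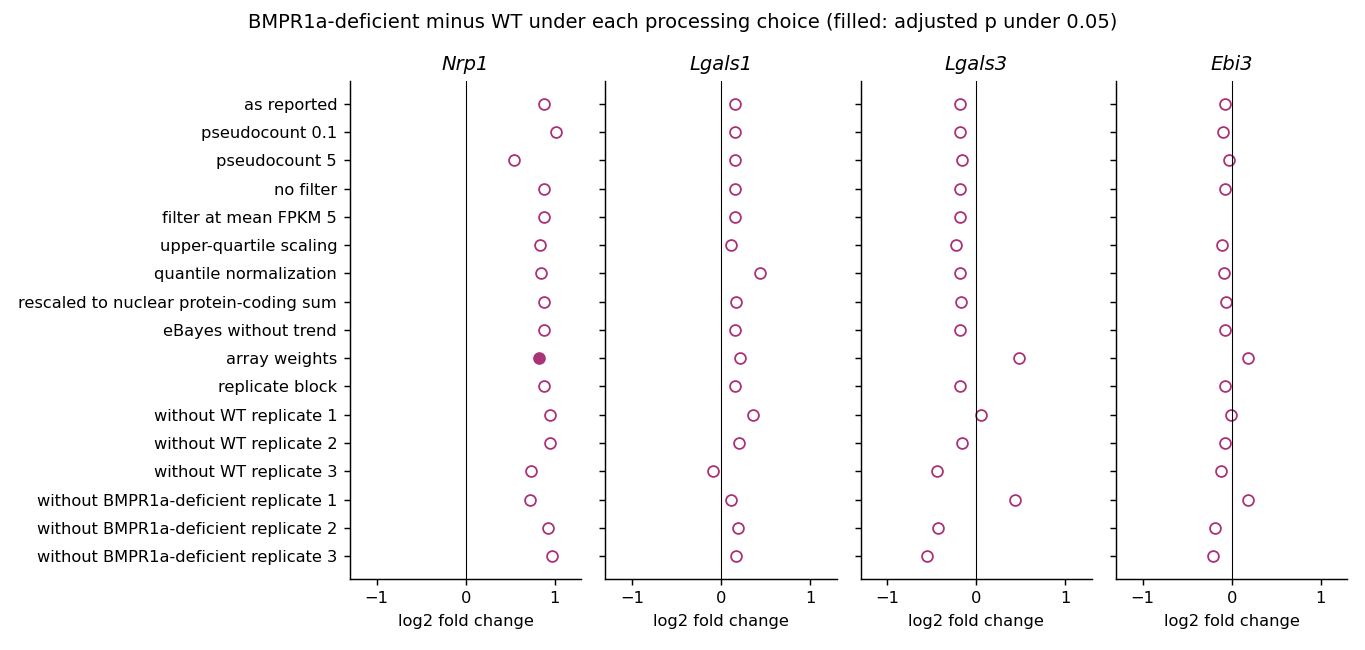
Log2 fold change, BMPR1a-deficient minus WT, of the 4 tested mediators under each processing choice; filled points have an adjusted p under 0.05. Nrp1 stays between 0.55 and 1.02 and is called with array weights alone, while Lgals1, Lgals3 and Ebi3 change sign when single libraries are left out.

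The genes most like each tested mediator were sought among 7886 annotated protein-coding genes with a mean of at least 5 FPKM, by Pearson r of log2(FPKM + 1) over the 6 libraries. These r are descriptions: they share 6 libraries, and high values occur among so many genes. Nrp1 was followed most closely by Ssx2ip (r = 0.998, Spearman rho = 0.943), Tceal9 (r = 0.998) and Gins3 (r = 0.997). Ssx2ip was at 5.27, 5.22 and 3.64 FPKM in WT and at 10.9, 7.89 and 7.94 in the deficient libraries. Lgals3 was followed by Mospd1 (r = 0.993), Tmem129 (r = 0.990) and Tm2d2 (r = 0.990), and Ebi3 by Tmem167 (r = 0.996), Pptc7 (r = 0.994) and Plekhb2 (r = 0.994). Those 6 genes were all lowest in BMPR1a-deficient replicate 1, as Lgals3 and Ebi3 were. For Lgals1 the closest were Cenpl, Hyls1 (r = 0.965) and Anapc16 (r = 0.958), all lowest in WT replicate 3. Of these 12 genes 0 passed the threshold.

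Among the mediators, Ebi3 and Lgals3 varied together over the 6 libraries (r = 0.981, Spearman rho = 0.943), and r was 0.946 without BMPR1a-deficient replicate 1. Lgals1 and Lgals3 had an r of 0.209 over all 6 libraries and of 0.904 without that library. Nrp1 and Lgals3 had an r of -0.283 over all 6 libraries and of 0.791 without it. For the pairs of Lgals3 with Lgals1 and with Nrp1 that library thus set the size or the sign of r. All these values describe 5 or 6 points.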

How the data were processed

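The authors deposited FPKM values, 1 column per library, for 25759 genes. TopHat2, Cufflinks, Cuffdiff and GRCm38.p4 are named per the submitters' processing notes. Their versions, the strand handling, the annotation and any scaling between libraries are not given. FPKM carry no counts, so depth was estimated from the densest low value of FPKM times exon length in 3536 genes with 1 transcript. Symbols and positions came from GENCODE M21 (GRCm38), which matched 96.6% of identifiers.

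Genes with a mean of at least 1 FPKM (13413, among them 4 of the 8 mediators) entered a limma fit (limma 3.58.1, R 4.3.3) of log2(FPKM + 1) on group, moderated by eBayes with a trend. P-values are two-sided, adjusted by Benjamini-Hochberg and called at 0.05. This scale understates the change of low genes. Mediators under the filter were read from a fit over 24025 genes above 0 in any library. The script was tested on simulated data.

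Members and lists were chosen with earlier results of these data known. Named genes are the mediators, each list's called members or otherwise its 2 highest, and the 3 genes most like each tested mediator. Others are said to be chosen after their values were seen, or are given as values of a list. The alternatives varied the pseudocount, filter, scaling, moderation, sample weights, a replicate block and each library left out. Leaving out libraries without the filter was added after the data were seen.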

Additional observations from a re-analysis of the deposited data

How the results depend on the processing

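The count of genes called, 100 higher and 43 lower, was 833 and 407 with array weights, 5 and 5 with a replicate block, and between 10 and 134 higher and 4 and 76 lower when a library was left out. The lower count was 27 with a filter at 5 FPKM and 70 with quantile normalization. The share of calls that were higher was 69.9% as reported and 55.7% after quantile normalization. The filter at 5 FPKM leaves Ebi3, Plxnd1 and Vwf without a value. Libraries of the same replicate number had correlations of deviations of 0.010, 0.064 and 0.052, against -0.093 to 0.041 for the other pairs. Values this small cannot show whether equal numbers mark a shared day or culture, which the labels do not give. Of the mediators tested under each choice 0 were called, except 1 with array weights, Nrp1, at a log2 fold change of 0.82. Array weights turned the direction of Ebi3 (0.18), Lgals3 (0.48), Lgals9 (0.21), Lgals3bp (0.073), Trac (0.016), Lyz2 (0.29), Tyrobp (0.081), Vwf (-0.025), Tmem167 (0.20), Pptc7 (0.12), Plekhb2 (0.12), Mospd1 (0.13), Tmem129 (0.11) and Tm2d2 (0.11), with no call in these. Quantile normalization turned Lgals9 (0.007), Trac (0.165) and Cd3g (0.037), a pseudocount of 5 turned Lgals9 (0.001), and rescaling to the nuclear protein-coding sum turned Lgals9 (0.008). Leaving out a library gave log2 fold changes on both sides of 0, none of them called, of -0.025 to 0.37 for Il10, -0.21 to 0.18 for Ebi3, -0.20 to 0.20 for Il12a, -0.049 to 0.010 for Areg, -0.089 to 0.36 for Lgals1 and -0.55 to 0.44 for Lgals3. It did so too for Lgals9 (-0.11 to 0.21), Lgals3bp (-0.27 to 0.16), Cd79b (-0.14 to 0.37), Cd79a (-0.010 to 0.46), Lyz2 (-0.89 to 0.58), Fcer1g (-1.63 to 0.21), Tyrobp (-1.06 to 0.32), Pecam1 (-0.18 to 0.026), Vwf (-0.029 to 0.27), Tmem167 (-0.21 to 0.21), Pptc7 (-0.11 to 0.12), Plekhb2 (-0.21 to 0.12), Cenpl (-0.025 to 0.22), Mospd1 (-0.17 to 0.10), Tmem129 (-0.16 to 0.092) and Tm2d2 (-0.082 to 0.092). In the fits without the filter, leaving out a library did so for Il12b (-0.16 to 0.03) and Egf (-0.06 to 0.04). A replicate block also ended the calls of Tnfrsf9 (limma adjusted p = 0.144) and Pdcd1 (0.149), and testing without the filter that of Pdcd1 (0.0736). Array weights called Il10rb, Sema4a, Ssx2ip, Tceal9 and Gins3. The cause of these changes was not tested. A fit with fewer libraries has less power. Areg rests on about 1 to 5 fragments per library, which limits the precision of its values.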
